A study of Mus musculus with 6 samples.

Results

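The genes described here are 10 inflammatory cytokine and colony-stimulating factor genes, Tnf, Il6, Il1a, Il1b, Il1rn, Il18, Il10, Csf1, Csf2 and Csf3. They were chosen by name, with earlier results of these data known, out of the 37991 gene identifiers of the deposited count table, and all 10 were found in it. Of the 10, 8 passed the filter on low counts, and Csf2 and Csf3 did not. RNA was sequenced from freshly isolated bone endothelial cells (BECs) of untreated c57/Bl6 mice, C57BL/6J in the study's methods, at 12 weeks of age, in 3 libraries from females and 3 from males, with no transgene or deletion in either group. The study described digesting crushed tibiae and femurs and capturing cells on magnetic beads coated with an antibody to endomucin, a surface protein of bone capillaries and sinusoids, whereas the labels describe tibia and a sort by endomucin. The 3 samples with the best RNA were kept in each set. No source used here said whether a library came from 1 animal, so p-values measure only the spread between these samples, which may be in part technical. The study compared the transcriptomes of female and male BECs to learn how they differ, and here these 10 signals are followed through that comparison.

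As background, TNF, IL-6 and the interleukin-1 family are the classical inflammatory cytokines, made above all by myeloid cells and read by endothelial cells, which respond with adhesion molecules and further cytokines. The interleukin-1 family carries its own brake: IL-1α and IL-1β signal through the same receptor, the antagonist encoded by Il1rn occupies that receptor without signalling, and the decoy receptor Il1r2 binds the ligand without passing the signal on. Colony-stimulating factors drive the production of blood cells in marrow, Csf1 for macrophages and osteoclasts, Csf2 for granulocytes and macrophages and Csf3 for neutrophils, and IL-10 dampens inflammatory cytokine production. In bone, TNF, IL-1, IL-6 and Csf1 are also known for their part in the formation of osteoclasts.

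Total counts ranged from 47678806 to 58325745 in the females and from 49236654 to 50406097 in the males. Values are CPM, counts scaled to library size with edgeR's TMM factors, and a floor of 3 counts per library stood at 0.0477 to 0.0639 CPM. This floor covers counting error only. All 20 endothelial markers were detected in every library, the lowest at 18 counts, and summed to 0.0435% to 0.0682% of counts in females and 0.0279% to 0.0394% in males, without overlap (exact two-sided permutation p = 0.1, and 3 against 3 can reach no lower). The 16 neutrophil markers summed to 2.10% to 2.27% in females and 3.46% to 4.50% in males, again without overlap (exact two-sided permutation p = 0.1), a larger share than that of the endothelial markers in every library. The sums of the 16 monocyte and macrophage markers overlapped, at 0.834% to 0.868% and 0.818% to 0.926%, although 13 of the 16 had a negative log2 fold change. Of the 16, 10 were lower and 2 higher in every male, beside 7.29% and 7.25% of all genes tested. Lyz2, the marker of this list with the most counts in every library, was 1 of the 2 (log2 fold change 0.57). It thus weighs heavily in the sum. Erythroid markers (12) were at 1.32% to 1.73% in females and 1.83% to 2.86% in males, without overlap. T and NK cell markers (12) were at 0.0113% to 0.0118% in females and 0.00970% to 0.0104% in males, also without overlap. Of the T and NK cell markers, 6 had a positive and 6 a negative log2 fold change, with a median of -0.05. Only Cd4 of these was apart between the sexes, with means of 49.3 CPM in females and 33.9 in males. No marker of any list was at 0 in a library. In these bulk samples, fewer cells of a type and less RNA per cell cannot be told apart, and the part of these cell type differences in the results below was not tested.

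The levels of the 10 transcripts spanned a wide range. Compared per kilobase of exon sequence, Il18 was the highest, with a mean of 16.1 ± 3.67 CPM per kilobase (SD over 6 libraries), followed by Il1b with 14.6 ± 8.79, Il1rn with 9.24 ± 1.47 and Csf1 with 4.05 ± 0.925. Il1a followed with 1.64 ± 0.530, Tnf with 1.31 ± 0.372 and Il10 with 0.519 ± 0.279. The 3 last were Il6 with 0.0922 ± 0.0420 CPM per kilobase, Csf2 with 0.0786 ± 0.0580 and Csf3 with 0.0153 ± 0.0315. Neighbours in this order overlapped over the 6 libraries except Il1rn with Csf1 and Tnf with Il10. Among 17743 tested genes with a known length, Il18 was above 85.6%, Il1b above 84.4%, Il1rn above 77.1% and Csf1 above 59.1%, while Il1a was above 39.1%, Tnf above 34.8%, Il10 above 20.7% and Il6 above 5.11%. Il18, Il1b, Il1rn and Csf1 were thus the more abundant of the 10, Il1a, Tnf and Il10 lay below them, and Il6, Csf2 and Csf3 were sparse. With the longest transcript in place of all exons, Il1rn stood above Il1b, so the order among the first 3 depends on the length used.

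**Figure D1:**
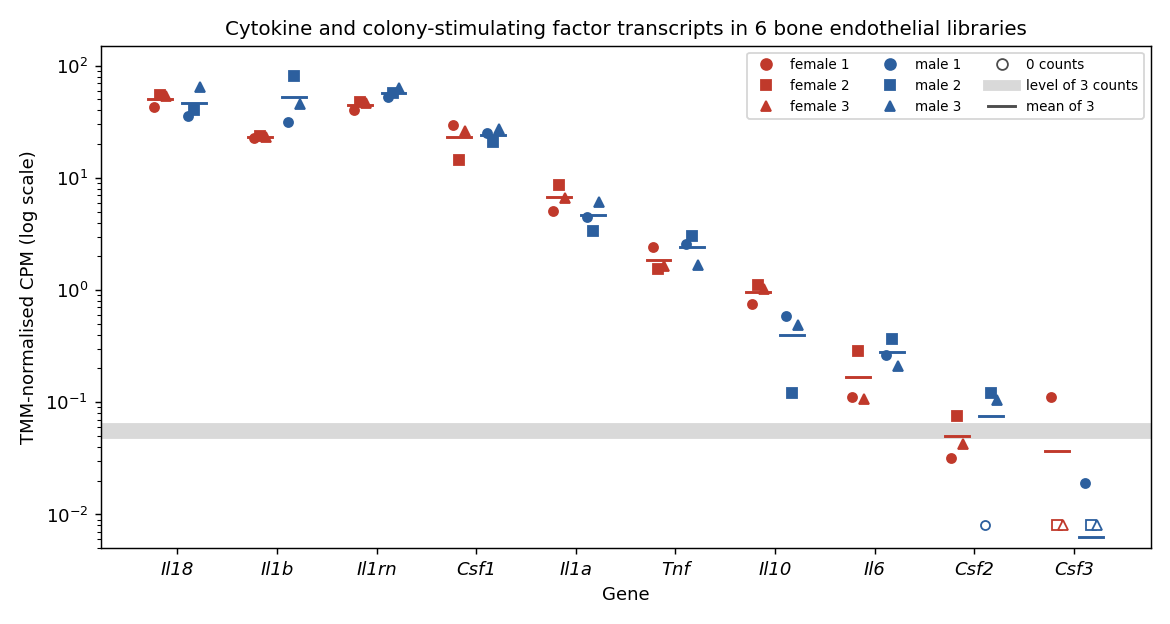
TMM-normalised CPM on a log axis for each of the 10 genes in the 3 female (red) and 3 male (blue) libraries, ordered by mean level per kilobase, with a bar at the mean of 3 libraries, open symbols for 0 counts and a grey band at the level of 3 counts. Il1b and Il1rn of the males lie above those of the females and Il10 below, while Csf2 and Csf3 lie under or near the level of 3 counts, with at most 6 counts (male 2) for Csf2 and 7 (female 1) for Csf3.

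Il1a and Il1b, the genes of the 2 interleukin-1 agonists, lie side by side on the minus strand of chromosome 2 of GRCm39, Il1a from 129140291 to 129152098 and Il1b from 129206490 to 129213059, with 54391 bases between them. The 250 bases before their start sites are shown because the neighbouring genes had opposite signs between the sexes, and the capitals mark matches to short motifs. The sequences are from RefSeq on GRCm38.p6, written 5′ to 3′ on the strand of the gene, chr2:129309973-129310222 for Il1a and chr2:129371140-129371389 for Il1b.
Il1a: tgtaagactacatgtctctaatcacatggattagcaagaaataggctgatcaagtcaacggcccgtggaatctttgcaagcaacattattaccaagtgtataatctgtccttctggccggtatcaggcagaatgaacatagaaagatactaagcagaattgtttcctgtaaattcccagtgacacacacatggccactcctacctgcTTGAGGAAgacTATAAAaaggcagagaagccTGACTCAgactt
Il1b: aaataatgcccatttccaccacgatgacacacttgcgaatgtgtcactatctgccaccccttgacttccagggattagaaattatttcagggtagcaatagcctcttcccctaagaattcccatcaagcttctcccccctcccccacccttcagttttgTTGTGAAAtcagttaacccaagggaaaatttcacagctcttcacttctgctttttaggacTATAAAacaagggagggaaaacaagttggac

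The letters searched, on both strands, were TATAAA for the TATA box, TTNNGNAA for C/EBP, the factors of myeloid and acute phase genes, TGANTCA for AP-1, and the NF-kB consensus. The TATA box was found 31 to 26 bases before the start of Il1b and 32 to 27 bases before that of Il1a, and 12.4% of 32851 promoters hold these letters in a window of this length. The C/EBP letters matched as TTGTGAAA at 91 to 84 bases before the Il1b start and as TTGAGGAA at 43 to 36 bases before the Il1a start, with 36.8% of promoters holding a match. The AP-1 letters were present in the Il1a window alone of this pair, as TGACTCA at 12 to 6 bases before the start (6.75% of promoters). The NF-kB consensus matched in neither window (7.25% of promoters), and a match, or none, describes only these letters.

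Il1b, which encodes IL-1β, had 22.8, 23.8 and 23.0 CPM in female libraries 1, 2 and 3 and 31.7, 81.1 and 45.6 in male libraries 1, 2 and 3, from 1078 to 3994 counts. Every male library was above every female one, the females lay within a narrow range and male 2 stood far above the other males. The means were 23.2 ± 0.523 (SD, n = 3) and 52.8 ± 25.5 CPM (SD, n = 3), a log2 fold change of males over females of 1.19 with a standard error of 0.290. The adjusted p from edgeR (quasi-likelihood F test, Benjamini-Hochberg over 19480 genes) was 0.227 with an unadjusted p of 0.00280, so Il1b did not pass the threshold of 0.05. In DESeq2's Wald test, the tool of the study's methods, it did, at a log2 fold change of 1.19 (standard error 0.260) and a Benjamini-Hochberg adjusted p of 9.87e-04. Without male 2, DESeq2 gave 0.75 with an adjusted p of 0.0502, which ends that call, and over all alternatives the adjusted p ranged from 1.10e-05 to 0.585. Neutrophils and monocytes are known sources of Il1b. The neutrophil markers were highest in the same library, male 2, at 4.50% of counts. The monocyte and macrophage markers summed to their lowest share there, 0.818%, but they did not move together. Among the libraries, Ly6c2 was at its highest in male 2, with 312 CPM, and Mrc1 at its lowest, with 272 CPM. The part of these cells in the Il1b result was not tested.

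Il1rn, the gene of the receptor antagonist, lies on chromosome 2 of GRCm39 from 24226865 to 24241506. It had 40.7, 47.0 and 46.2 CPM in the 3 females and 53.0, 56.8 and 63.2 in the 3 males, so all males were above all females and no library stood far off. The means of 44.6 ± 3.45 and 57.7 ± 5.13 CPM (SD, n = 3 each) gave a log2 fold change of 0.37 with a standard error of 0.118. It did not pass the threshold in edgeR's test (Benjamini-Hochberg adjusted p = 0.336, unadjusted p = 0.0105), nor in DESeq2's (adjusted p = 0.224).

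Il1a, which encodes IL-1α, an agonist that is active without cleavage, had the opposite sign. It had 5.06, 8.65 and 6.58 CPM in the females and 4.48, 3.35 and 6.11 in the males. The highest 2 values were female and the lowest 2 male, and the groups overlapped through female 1 and male 3. Its log2 fold change of -0.54 (standard error 0.284) gave a Benjamini-Hochberg adjusted p of 0.575 in edgeR's test.

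Because these 3 genes act on 1 receptor, their counts were set against each other within each library, where no scaling between libraries enters. The ratio of Il1b to Il1rn counts was 0.561, 0.506 and 0.497 in the females and 0.597, 1.43 and 0.722 in the males. Male 2 was the only library with more Il1b than Il1rn counts, and without it the male mean moved from 0.916 to 0.660, against 0.521 ± 0.0349 (SD, n = 3) in females. The ratio of Il1b to Il1a was 4.52, 2.75 and 3.49 in the females and 7.07, 24.2 and 7.46 in the males, with means of 3.59 ± 0.885 and 12.9 ± 9.78 (SD, n = 3 each). Without male 2 the male mean was 7.26, still above all 3 females. The ratio of Il1rn to Il1a was 8.04, 5.44 and 7.03 in the females and 11.8, 16.9 and 10.3 in the males. All 3 ratios were higher in every male library than in any female one. They are given as a description, with no test, and they do not correct for the lengths of the transcripts.

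**Figure D2:**
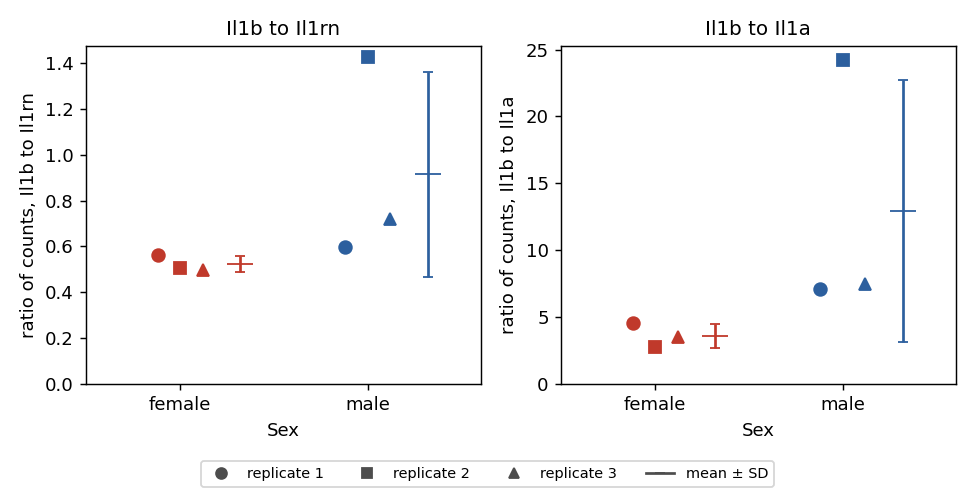
Ratio of Il1b to Il1rn counts (left) and of Il1b to Il1a counts (right), with no unit, in each of the 3 female (red) and 3 male (blue) libraries, with the mean and its SD beside the points. All males lie above all females in both panels, and male replicate 2, at 1.43 and 24.2, sets most of the male spread.

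Il18, the other pro-cytokine that caspase-1 matures and the most abundant of the 10 per kilobase, lies on chromosome 9 of GRCm39 from 50466081 to 50493633. It had 42.4, 54.3 and 53.3 CPM in the females and 35.5, 39.9 and 65.1 in the males. Males 1 and 2 were the lowest of the 6 libraries and male 3 the highest, so the males enclosed the females. The log2 fold change was -0.10 (standard error 0.211, Benjamini-Hochberg adjusted p = 0.918 in edgeR's test), and its sign turned when male 1 or male 2 was left out.

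Counts of overlapping genes on the other strand bear on these loci, since the labels name a directional library kit, which marks strand, but whether reads were counted by strand is not stated. Gm14023, which spans both Il1a and Il1b, had 154 to 195 counts per library, equal to 4.46% to 14.3% of the Il1b count and to 36.1% to 108% of the Il1a count. Il1bos, an antisense gene at Il1b, had 33 to 73 counts, or 1.38% to 5.80% of Il1b. Bco2, on the strand opposite Il18, had 187 to 313 counts, or 6.06% to 12.1% of Il18. These reads are small beside those of Il1b, but the Il1a values are uncertain to a larger extent.

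Tnf and Il6 were measured at low levels. The study also listed PCR primers for both, shown here because they mark the transcripts meant. Each matched its GRCm39 transcript exactly and in coding sequence, and the capitals are not used.
Tnf forward: atggcctccctctcatcagt
Tnf reverse: tttgctacgacgtgggctac
Il6 forward: tccagttgccttcttgggac
Il6 reverse: gtgtaattaagcctccgacttg

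The Tnf forward primer lies in exon 2, at chr17:35420085-35420104 on GRCm39, and matched 2 of 2 annotated transcripts. The reverse primer crosses the junction of exons 3 and 4, between 35419536 and 35419849, and matched 1 of 2. Both Il6 primers lie in exon 2, at chr5:30218384-30218403 and chr5:30218502-30218523, and matched 4 of 4 transcripts.

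Tnf, on chromosome 17 of GRCm39 from 35418357 to 35420983, encodes TNF, the activator of NF-kB signalling in endothelial cells. It had 2.42, 1.55 and 1.64 CPM in the females and 2.60, 3.00 and 1.67 in the males, from 77 to 152 counts. Males 1 and 2 were the highest libraries, and male 3 lay within the females. The log2 fold change of 0.37 (standard error 0.331) gave a Benjamini-Hochberg adjusted p of 0.761 in edgeR's test.

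Il6, on chromosome 5 of GRCm39 from 30218112 to 30224979, encodes IL-6, a cytokine of the acute phase that also promotes osteoclast formation. It had only 7, 15 and 5 counts in the females and 14, 18 and 10 in the males, or 0.107 to 0.284 and 0.211 to 0.365 CPM. The sums were 27 counts in females (exact Poisson 95% interval 17.8 to 39.3) and 42 in males (30.3 to 56.8), intervals that overlap and cover counting error only. The log2 fold change of 0.74 had a standard error of 0.652 and a Benjamini-Hochberg adjusted p of 0.757 in edgeR's test. A difference between the sexes in Il6 was not detectable at this depth.

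Il10, the anti-inflammatory member, lies on chromosome 1 of GRCm39 from 130947581 to 130952711. It had 0.748, 1.12 and 1.02 CPM in the females and 0.589, 0.122 and 0.485 in the males, from 47, 59 and 48 counts against 31, 6 and 23. All males were below all females, and male 2, the library with the most Il1b, had the least Il10. The log2 fold change of -1.26 had a standard error of 0.570 and did not pass the threshold (edgeR, Benjamini-Hochberg adjusted p = 0.509, unadjusted p = 0.0506). Without male 2 it was -0.84 in the same test.

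Of the 3 colony-stimulating factors, Csf1 alone was well measured. Csf1, the factor of macrophages and osteoclasts, lies on chromosome 3 of GRCm39 from 107648364 to 107667806. It had 29.3, 14.4 and 26.4 CPM in the females and 24.9, 20.7 and 27.1 in the males. Female 2 was the lowest and female 1 the highest of all 6, so the females enclosed the males, and the log2 fold change was 0.05 (standard error 0.236, Benjamini-Hochberg adjusted p = 0.963 in edgeR's test). Its sign turned when female 2 or male 3 was left out. Stromal markers (12 genes), whose cells are known to make Csf1, summed to 0.147% of counts in female 2 against 0.326% and 0.311% in females 1 and 3. They were at 0.196%, 0.129% and 0.230% in males 1, 2 and 3, so male 2 had the lowest share but more Csf1 than female 2, and their part in the spread of Csf1 was not tested.

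Csf2, on chromosome 11 of GRCm39 from 54138097 to 54140493, had 2, 4 and 2 counts in the females and 0, 6 and 5 in the males. Csf3, on chromosome 11 from 98592089 to 98594458, had 7, 0 and 0 counts in the females and 1, 0 and 0 in the males. Both were at or near the floor of 3 counts in most libraries, were not tested and are given no fold change. Summed over the 6 libraries Csf2 had 19 counts (exact Poisson 95% interval 11.4 to 29.7) and Csf3 had 8 (3.45 to 15.8), the latter nearly all from female 1.

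Over the list, edgeR called 0 of the 8 tested genes at a Benjamini-Hochberg adjusted p under 0.05, where it called 8 of 19480 genes (0.0411%) in all. At an unadjusted p under 0.05, 2 of the 8 (Il1b and Il1rn) were higher in males and 0 lower, beside 5.03% and 4.76% of all genes tested. DESeq2's Wald test called 1, Il1b, where it called 1.31% of all genes with a p (0.833% higher and 0.478% lower in males). It gave Il6 no adjusted p, and without male 2 it called none of the members and 0.398% of all genes. Male and female libraries were fully apart for 3 of the 8, Il1b and Il1rn higher in males and Il10 lower, beside 14.5% of all genes tested (7.25% higher and 7.29% lower). The median log2 fold change was 0.21, with 5 positive and 3 negative values, against a median of -0.00 over all genes. The counts of all 10 genes together amounted to 144 to 156 CPM of the total counts in females and 160 to 205 in males. Il1b made up 14.5% to 15.9% of that sum in the females, and 20.7%, 39.5% and 21.8% in males 1, 2 and 3.

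**Figure D3:**
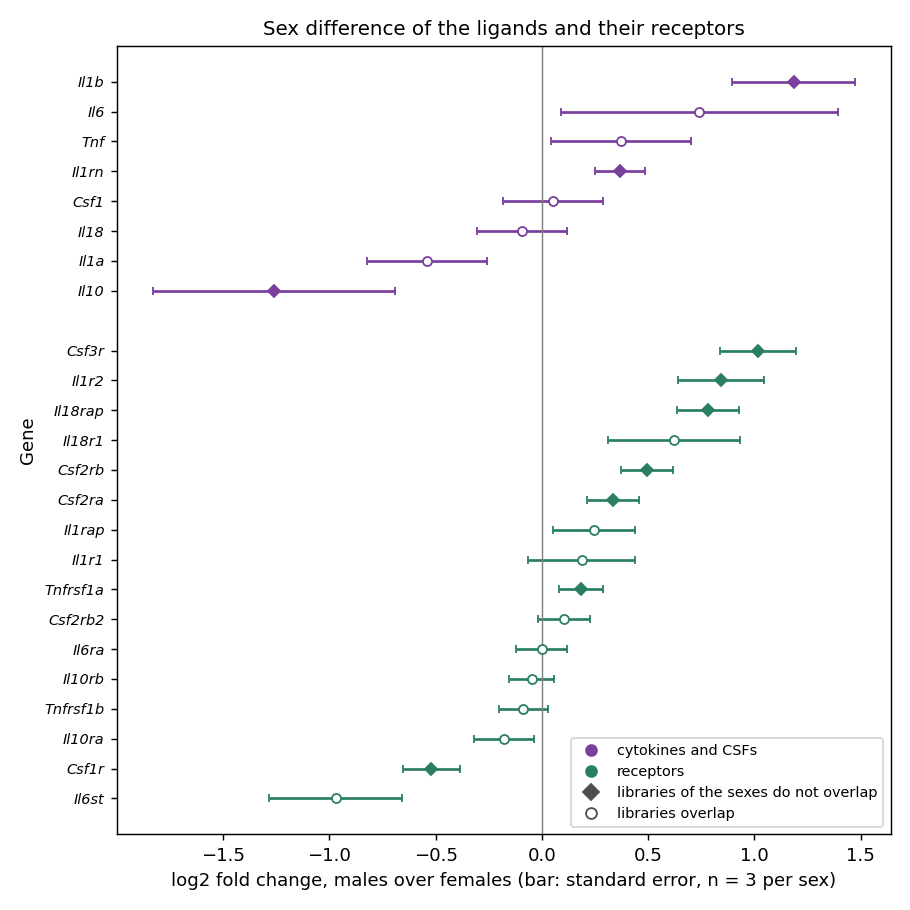
Log2 fold change of males over females on the horizontal axis, with its standard error (n = 3 per sex, edgeR's quasi-likelihood fit), for the 8 tested cytokine and CSF genes (purple) and 16 receptor genes (green). Diamonds mark genes whose male and female libraries do not overlap: Il1b (1.19), Il1rn (0.37) and Il10 (-1.26) among the ligands and 7 of the receptors, with Csf3r (1.02) and Il1r2 (0.84) the highest of these.

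The receptors of these ligands were then examined, as 16 genes, all tested. By edgeR (Benjamini-Hochberg), 0 of the 16 were called, and 5 were higher and 2 lower in males at an unadjusted p under 0.05 (5.03% and 4.76% of all genes tested). DESeq2's Wald test called 4 higher and 2 lower (0.833% and 0.478% of all genes), and 2, Il18rap and Csf3r, without male 2. The groups did not overlap for 7 of the 16, of which 6 were higher in males and Csf1r lower (14.5% of all genes tested do not overlap). The median log2 fold change was 0.19.

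For the interleukin-1 ligands, the decoy receptor Il1r2 had 10.1, 14.4 and 13.5 CPM in the females and 17.7, 28.5 and 22.1 in the males. All males were above all females, with male 2 the highest, the order of males also seen for Il1b. The log2 fold change was 0.84 (standard error 0.204), with an adjusted p of 0.198 in edgeR's test and 0.0107 in DESeq2's (both Benjamini-Hochberg). Without male 2, DESeq2 gave 0.66 with an adjusted p of 0.349, which ends that call. The signalling receptor Il1r1, at 4.62 to 9.21 CPM over all libraries, had 0.19 (standard error 0.251), and its co-receptor Il1rap had 0.24 (standard error 0.192), both with overlapping groups. The fitted fold of males over females was 1.79 for Il1r2 and 1.14 for Il1r1, and the difference between these receptors was not tested. Il1r2 is known as a gene of neutrophils, whose markers were higher in the same males, and their part in the result was not tested.

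The accessory chain of the IL-18 receptor, Il18rap, had 38.2, 40.4 and 37.2 CPM in the females and 58.4, 81.6 and 59.3 in the males, again without overlap. Its log2 fold change of 0.78 (standard error 0.144) gave an adjusted p of 0.0859 in edgeR's test and 6.22e-04 in DESeq2's (both Benjamini-Hochberg), and 0.0182 in DESeq2's test without male 2. The ligand-binding chain Il18r1, at 2.60 to 8.40 CPM, had 0.62 (standard error 0.309) with overlapping groups. The ligand Il18 itself overlapped between the sexes, as given above.

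Among the receptors for colony-stimulating factors, Csf3r, the receptor through which Csf3 drives neutrophil production, had 183, 162 and 139 CPM in the females and 306, 412 and 262 in the males. The lowest male was well above the highest female. Its log2 fold change was 1.02 (standard error 0.180), with an adjusted p of 0.0731 in edgeR's test and 1.50e-05 in DESeq2's (both Benjamini-Hochberg), and 0.00147 in DESeq2's without male 2. The receptor was thus abundant in libraries where its ligand Csf3 had 0 to 7 counts. Csf3r is a gene of the neutrophil lineage, and the 16 neutrophil markers, of which 15 had a positive log2 fold change with a median of 0.59, moved in the same direction. Their part in the result was not tested.

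Csf1r, the receptor of Csf1 and a gene of monocytes, macrophages and osteoclast precursors, was the only receptor lower in all males. It had 296, 291 and 253 CPM in the females and 212, 169 and 205 in the males. The log2 fold change was -0.52 (standard error 0.134). The adjusted p was 0.230 in edgeR's test and 0.0291 in DESeq2's (both Benjamini-Hochberg), and 0.395 in DESeq2's without male 2, which ends that call. Csf1r is itself 1 of the 16 monocyte and macrophage markers, whose median log2 fold change was -0.39.

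The Csf2 receptor chains Csf2ra, with 0.34 (standard error 0.121), and Csf2rb, with 0.49 (standard error 0.122), did not overlap and were higher in males. Csf2rb had 76.1, 74.3 and 77.4 CPM in the females and 101, 123 and 96.0 in the males, an adjusted p of 0.208 in edgeR's test and of 0.0364 in DESeq2's (both Benjamini-Hochberg, 0.472 in DESeq2's without male 2). Its close paralog Csf2rb2, at 22.7 to 27.1 CPM, had 0.11, and reads the paralogs share make the split between them uncertain.

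For TNF, Tnfrsf1a, the receptor most cells carry, had 91.8 to 93.3 CPM in females and 100 to 111 in males. The groups did not overlap, but the log2 fold change was 0.18 (standard error 0.104, Benjamini-Hochberg adjusted p = 0.602 in edgeR's test). Tnfrsf1b had -0.09 and overlapped. For IL-6, Il6ra overlapped, with its log2 fold change at -0.00, while Il6st, the gp130 chain that IL-6 shares with related cytokines, had 76.9, 36.3 and 77.4 CPM in the females and 33.4, 22.3 and 41.4 in the males. Female 2 lay below male 3, so the groups overlapped. The log2 fold change of -0.97 (standard error 0.312) had an adjusted p of 0.356 in edgeR's test and of 0.0253 in DESeq2's (both Benjamini-Hochberg, 0.491 in DESeq2's without male 2). With the replicate number as a block, edgeR's test gave -0.94 (standard error 0.120) and a Benjamini-Hochberg adjusted p of 0.00158. The 20 endothelial markers had the same sign in all 20 genes with a median of -1.02, and their part in the Il6st value was not tested. The IL-10 receptor chains Il10ra (-0.18) and Il10rb (-0.05) overlapped between the sexes at 70.8 to 103 and 74.4 to 82.3 CPM.

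**Figure D4:**
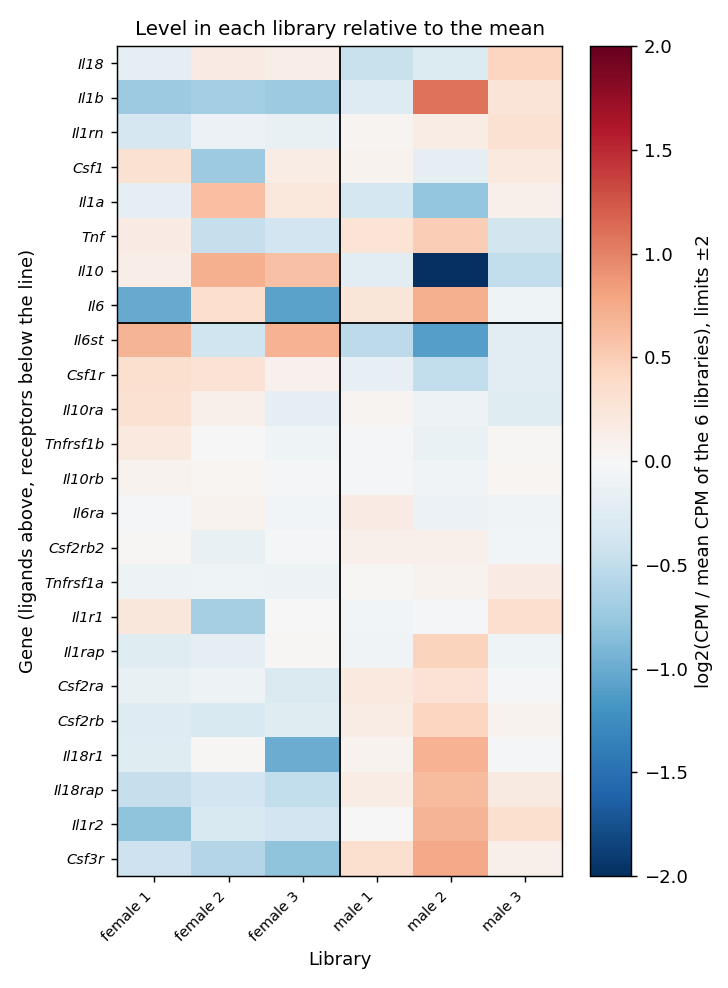
Colour shows log2 of the CPM of a library over the mean CPM of the 6 libraries, for the 8 tested ligands (above the line, by level per kilobase) and 16 receptors (below it, by log2 fold change), with female libraries left and male libraries right of the vertical line. Male 2 holds the highest value (1.09, Il1b) and the lowest (-2.48, Il10, beyond the colour limit of 2).

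Genes that mature or release these cytokines were examined as a list of 10, all tested. In edgeR's test with Benjamini-Hochberg adjustment 0 were called, 1 was higher in males at an unadjusted p under 0.05 (5.03% of all genes tested), and DESeq2's Wald test called 0 (1.31% of all genes). The median log2 fold change was 0.06, with 5 positive and 5 negative values. That gene was Nlrp3, the sensor of the inflammasome that activates caspase-1, at 14.5, 16.0 and 14.3 CPM in the females and 18.9, 20.5 and 19.7 in the males. The groups did not overlap, as for 7.25% of all genes tested in this direction (log2 fold change 0.40, standard error 0.134, edgeR's Benjamini-Hochberg adjusted p = 0.357). The adaptor Pycard had 0.20 and the pore-forming Gsdmd had 0.19. Of the genes that shed TNF from the cell surface, Adam17 had -0.09 and its partner Rhbdf2 had 0.12, and these 4 overlapped between the sexes.

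Of 25 genes that carry out or restrain NF-kB and cytokine signalling, 0 were called in edgeR's test with Benjamini-Hochberg adjustment, 5 were higher and 4 lower in males at an unadjusted p under 0.05 (5.03% and 4.76% of all genes tested), and DESeq2's Wald test called 3, all higher (0.833% of all genes). The median log2 fold change was 0.10. These 3 were Socs3, the feedback inhibitor of gp130 and Csf3 receptor signalling, with 0.85 (standard error 0.175), Cebpd, a transcription factor of the acute phase, with 0.80 (standard error 0.163), and Ptgs2, the inducible cyclooxygenase, with 1.52 (standard error 0.446). Their adjusted p values were 0.115, 0.115 and 0.290 in edgeR's test and 0.00139, 0.00214 and 0.0336 in DESeq2's (Benjamini-Hochberg). Without male 2, DESeq2 called none of the 3 (adjusted p of 0.0822, 0.102 and 1.00), and its log2 fold change of Ptgs2 moved from 1.53 to 0.85. For all 3 the males lay above the females, Ptgs2 with 0.970, 1.08 and 1.30 CPM in the females and 1.67, 5.64 and 2.32 in the males. Male 2 was the highest library for all 3, as it was for Il1b. The genes at the core of the pathway, Nfkb1 with -0.14 and Nfkbia with 0.10, overlapped between the sexes, while the adhesion molecule Vcam1, which marrow macrophages also express, had -0.39 and was lower in every male.

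For the 5 members above 5 CPM on average, the tested genes whose log2 CPM followed them most closely over the 6 libraries, among 12257 genes, are given as a description. The points share library, depth and cell composition, and with 6 points high correlations arise readily among so many genes. Il1b was followed by Ddx60 (Pearson's r 0.995), an unnamed gene, ENSMUSG00000093265 (0.993), and Car5b (0.991), and Il1rn by Ccl6 (0.996), a chemokine of myeloid cells, Stfa1 (0.994) and Sqor (0.993). All 6 were higher in every male, as were 7.25% of all genes tested. This adds nothing of its own, since genes chosen to follow Il1b or Il1rn tend to share their order of libraries. Il1a was followed by Gpd1 (0.994), Gm10240 (0.994) and Zfp385a (0.994), and Il18 by Rpl39-ps1 (0.997), Ebp (0.995) and Gm9701 (0.994). Csf1 was followed by Cyp1b1 (0.983), Mxra8 (0.976) and Fgfr2 (0.969). The companions of Il1a, Il18 and Csf1 overlapped between the sexes, as those genes themselves did.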

How the data were processed

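RNA of BECs captured by endomucin was analysed in 3 libraries from females and 3 from males. The authors deposited raw counts, as whole numbers for each gene in each library. The study's methods name STAR, GRCm39 and featureCounts, whereas the submitters' processing notes name TopHat2 2.0.11, mm9 (NCBIM37) and featureCounts. The sources also differ on library kit and read length, and none says whether reads were counted by strand, although the labels name a directional kit. Identifiers of the table end at number 93789, below 47216 of the 78289 genes of GENCODE M39, so genes numbered higher had no row. GENCODE M39 on GRCm39 gave symbols, positions and exon lengths for 31073 of the 37991 identifiers (96.2% of counts). RefSeq promoters (GRCm38.p6) were found for 8 of the 10 genes, not for Il10 and Csf3.

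Sexes were compared in R 4.3.3 with edgeR 4.0.16: TMM factors, filterByExpr by sex, glmQLFit (robust) and glmQLFTest, with adjustment by Benjamini-Hochberg over 19480 genes and calls at 0.05. Fold changes are males over females, and fits were tested on simulated data. Alternatives were other scalings and filters, DESeq2 1.42.0, fits that were not robust, the replicate number as a block and each library left out. DESeq2 without male 2 and DESeq2 with the block were chosen after seeing the data. Log2 CPM of companion genes used a pseudocount of 0.5 and genes of at least 5 CPM. The text names all members and receptors, from each further list the 3 most abundant genes and the 3 with the smallest p, and for each member above 5 CPM its 3 closest companions. Genes that overlap a member are named outside this rule. So are Il36a, Il36b, Il36rn, Lyz2, Ly6c2, Mrc1 and Cd4, chosen after their values were seen. Members, gene lists and marker lists were chosen with earlier results of these data known. No 2 libraries agreed within sampling noise (smallest chi-square per degree of freedom 33.6).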

Additional observations from a re-analysis of the deposited data

How the results depend on the processing

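At these depths Il6, Csf2 and Csf3 were too sparse for a fold change to be resolved, and 3 libraries per sex limit every test. Tnf, Il1a, Il1b, Il1rn, Il10 and Il6 kept their sign under every alternative that gave a value. When 1 library at a time was left out, the log2 fold change of Il1b lay between 0.74 (without male 2) and 1.45, that of Tnf between 0.19 (without male 2) and 0.61 (without female 1), that of Il1a between -0.79 and -0.32 (without female 2), that of Il6 between 0.51 and 1.34 (without female 2), that of Il1rn between 0.30 and 0.42, that of Il10 between -1.66 and -0.84 (without male 2), that of Il18 between -0.41 and 0.0673, and that of Csf1 between -0.20 and 0.26. Without male 2, Il1rap had 0.05 and Il18r1 0.36, and Il18r1 had 0.38 without female 3. With 1 library left out, Il10ra lay between -0.30 and -0.05 and Il10rb between -0.09 and -0.01. In the same fits Nfkb1 lay between -0.23 and -0.07 and Nfkbia between 0.00223 and 0.19. Ranges that crossed 0 were also seen for Tnfrsf1b (-0.15 to 0.00537), Il6ra (-0.0952 to 0.0549), Il1r1 (-0.0306 to 0.39), Ltb (-0.27 to 0.18), and the log2 share of monocyte and macrophage markers (-0.0536 to 0.0379) and of B cell markers (-0.183 to 0.0340). DESeq2 without male 2 gave 0.0170 for Il18 and 0.0633 for Il6ra. Il6ra was also positive with DESeq2's size factors (0.00327), at least 10 counts in every library (0.00323), genes over 1% of a library left out (0.00968) and DESeq2's Wald test (0.00128). The cause of these shifts was not tested.

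Of 19480 genes tested edgeR called 8, and 14 with total counts alone (71.4% higher in males, against 62.5%). It called 98 of 27044 with no filter on low counts (76.5% higher), and DESeq2 called 354 of 26997, or 106 of 26623 without male 2. With each library left out the number lay between 5 (without female 2) and 96 (without male 3). Of the members, DESeq2 called 1 (Il1b, 1.19). Of the receptors, 2 were called with no filter, 6 with DESeq2, 2 with DESeq2 without male 2 and 0 to 2 with each library left out (2, Il18rap and Csf3r, without male 3). Of the NF-kB and feedback genes, 1 was called with no filter, 3 with DESeq2 and 0 with DESeq2 without male 2, and of the related cytokines 1 with no filter, 2 with DESeq2 and 1 with DESeq2 without male 2. The cause of these differences was not tested.

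The replicate numbers are shared by the sexes, and the deviations of same-numbered libraries correlated positively in every pair (0.248, 0.0613 and 0.361 across 19480 genes). Male 2 alone correlated better with another number (0.162 with female 1). No source used here said what the numbers mark, so a shared replicate effect is possible. The main fit does not account for it, and fits with the number as a block are given beside it. With the replicate number as a block, edgeR called 428 genes (51.6% higher in males), 0 members, 5 receptors, 3 NF-kB and feedback genes and 1 related cytokine. The receptors were Csf3r, Il18rap, Il1r2, Il6st and Csf2rb, with adjusted p values of 0.00224, 0.00433, 0.00847, 0.00158 and 0.0484 (quasi-likelihood F test, Benjamini-Hochberg). The NF-kB and feedback genes included Socs3 (0.0271) and Cebpd (0.00158), and the related cytokine was Il36g (7.26e-04). DESeq2 with the block called 714 genes, 1 member (Il1b, 1.08, adjusted p = 1.10e-05), 6 receptors, 7 NF-kB and feedback genes and 4 related cytokines.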

Other observations

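Of 26 related cytokines, chosen as relatives of the 10 genes by family or role, 25 had a row and 20 were tested. By edgeR (Benjamini-Hochberg) 0 were called, with 3 higher and 3 lower in males at an unadjusted p under 0.05 (5.03% and 4.76% of all genes tested), and DESeq2's Wald test called 2, both higher (0.833% of all genes). The median log2 fold change was 0.25, against -0.00 over all genes tested. Il36g, an interleukin-1 family agonist whose own receptor shares the chain Il1rap, had 32.2, 39.1 and 27.8 CPM in the females and 55.9, 89.5 and 63.5 in the males. The males lay above the females with male 2 the highest, as for Il1b. Its log2 fold change of 1.08 (standard error 0.188) had an adjusted p of 0.0701 in edgeR's test, and of 3.53e-05 in DESeq2's and 0.00459 in DESeq2's without male 2 (Benjamini-Hochberg). The other IL-36 genes Il36a, Il36b and Il36rn had 0 counts in all 6 libraries, which allows up to 3 counts in each.

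Tnfsf13b, the B cell survival factor BAFF, had 0.69 (standard error 0.184) with an adjusted p of 0.244 in edgeR's test and 0.0345 in DESeq2's (both Benjamini-Hochberg), and was higher in every male. In DESeq2's test without male 2 its adjusted p was 0.447. Il12b, the shared subunit of IL-12 and IL-23, was lower in every male, at 0.105 to 0.183 CPM against 0.413 to 0.643. Its log2 fold change was -1.71 (standard error 0.559, Benjamini-Hochberg adjusted p = 0.343 in edgeR's test). The most abundant of the related cytokines were Ltb, which overlapped between the sexes (-0.09), Tgfb1, which was lower in every male (-0.23), and Kitl, the stem cell factor of the marrow niche, which is also 1 of the 12 stromal markers and overlapped (-0.58).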
